A study of Rattus norvegicus with 421 samples.

Results

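The genes described here are 7 transcription factor and growth control genes of the immediate early and stress response. They are Fos, Jun, Junb, Egr1, Myc, Atf3 and Btg2, taken by name from a list. The genes were chosen with earlier results of these data known. In all, 6 of the 7 had a probe set on the Affymetrix RAE230A array, 9 probe sets of 15866 in all, and Btg2 was not analysed here. The series holds 421 arrays of liver, 1 per animal, from male Wistar Hanover rats of 8 to 10 weeks that received 1 of 30 compounds or vehicle by gavage, in 98 treated and 38 vehicle groups. By the study's methods groups held 5 rats, though 4 vehicle groups here had 6 arrays, more than 1 group of 5 can give. The treated animals that went to the arrays were, by the same methods, chosen for liver changes found on histopathology. They were 3 in all but 1 group, so the spread given is that between chosen animals. Each change is the log2 value of a treated group minus that of the vehicle group named in its label, ± the standard error (SE) of the limma fit over all arrays. Calls needed a size of 1.5-fold or more and a p below 0.05 after Benjamini-Hochberg adjustment over all 15866 probe sets.

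The groups that the results turn on were as follows. Acetaminophen (Aap, 4250 mg/kg) was followed at 6, 12, 24 and 48 h against saline (Sal) animals of the same hour, 3 against 3 at each hour. Ethionine (ETH, 200 mg/kg, days 1, 3, 7 and 14) and Diethyl-stilbestrol (DES, 10 mg/kg, days 1 and 3) shared carboxymethylcellulose (CMC) vehicle animals of their study block, 4 at day 1 and 4 at day 3. Methapyrilene HCl (MPy, 60 mg/kg), aflatoxin B1 (AB1, 0.24 mg/kg) and acetamide (AA, 3000 mg/kg) shared another set of CMC animals, 6 at day 3 and 6 at day 7. C.I Direct Black (CIDB, 146 mg/kg) and cyproterone acetate (CPA, 100 mg/kg) had corn oil animals of separate blocks, 3 for each day, and nifedipine (Nif, 3 mg/kg) had 3 CMC animals for each day. The remaining 21 compounds had no called change in any of the 6 measured genes, each read from the brightest of its probe sets. Whole liver was measured, so fewer cells of a type and less RNA per cell cannot be told apart.

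Immediate early genes are switched on by growth signals, injury or stress from factors already present in the cell, and their short-lived transcripts usually fall again soon. Fos, Jun and Junb encode subunits of AP-1, a leucine zipper dimer that binds DNA. Egr1 encodes a zinc finger factor that growth factors induce, Myc a factor that drives ribosome production and growth, and Atf3 a leucine zipper factor of the stress response to unfolded protein, amino acid shortage and oxidants. In liver these genes are known from regeneration after tissue loss and from toxic injury. In the GRCr8 assembly Fos lies at chr6:110852188-110855054, Jun at chr5:115009900-115012993, Junb at chr19:40081126-40082910 and Egr1 at chr18:26737078-26740877. Myc lies at chr7:95483105-95488031, Atf3 at chr13:105274103-105331653 and Btg2, the gene of an antiproliferative protein, at chr13:48083931-48087690.

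The stretches just upstream of Egr1 and Junb are shown because these were, in turn, the gene called in most groups and the gene called at every Aap hour; the RefSeq table used here (GRCr8) holds both. Capitals mark matches to any of 8 motifs, searched on both strands. The first is the CArG box, to which serum response factor binds. The whole cAMP response element (CRE) was searched as TGACGTCA, and its core, which lies within it, as TGACG. The letters TGANTCA stand for the AP-1 site. A site of the cytokine-activated STAT factors was searched as TTCNNNGAA. The letters GCGNGGGCG stand for the site that EGR proteins themselves bind. The GC box of SP1 was searched as GGGCGG, and the TATA box near many starts as TATAAA.
Egr1, chr18:26736828-26737077, + strand: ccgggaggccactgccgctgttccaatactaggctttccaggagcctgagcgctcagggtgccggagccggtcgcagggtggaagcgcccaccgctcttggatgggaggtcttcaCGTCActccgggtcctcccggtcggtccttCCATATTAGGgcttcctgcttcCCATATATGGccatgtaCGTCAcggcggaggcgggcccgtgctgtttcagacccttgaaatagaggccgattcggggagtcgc
Junb, chr19:40080876-40081125, + strand: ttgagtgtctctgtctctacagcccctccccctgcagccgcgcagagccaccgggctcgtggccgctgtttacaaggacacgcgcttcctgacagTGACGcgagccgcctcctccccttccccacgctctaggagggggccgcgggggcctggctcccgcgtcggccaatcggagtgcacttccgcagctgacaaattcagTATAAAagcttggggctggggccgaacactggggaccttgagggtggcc
Egr1 had 2 CArG boxes, from 105 to 96 and from 83 to 74 bases before the gene's first base, and 2 CRE cores. Of 33469 upstream stretches of the same length, 1.5% held a CArG box and 18.2% held a CRE core. Junb had 1 CRE core and 1 TATA match, from 49 to 44 bases before its first base, and 12.9% of all stretches held the TATA letters. The whole CRE, AP-1, STAT, EGR and GC box letters were in neither stretch; they occurred in 1.59%, 6.34%, 7.67%, 4.29% and 30.5% of all stretches.

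Over the 98 treated groups the 6 measured genes gave 34 called rises and 2 called falls among 588 pairs of a gene and a group, 5.78% and 0.34% of the pairs. Over all probe sets, 1.02% of the tests were called higher and 0.731% lower. By gene, Egr1 was called higher in 10 groups and lower in 2, Myc higher in 8, Jun in 7, Atf3 in 5, Junb in 4 and Fos in 0, where each gene is read from the brightest of its probe sets. A member was called in 17 groups of 9 compounds, and 5 groups had at least 3 members called higher, Aap at 24 and 48 h, MPy at day 7 and ETH at days 1 and 3. Groups of 1 block share vehicle animals, so these counts are not over independent comparisons. As the genes were chosen with earlier results of these data known, the counts and shares are a description.

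**Figure D1:**
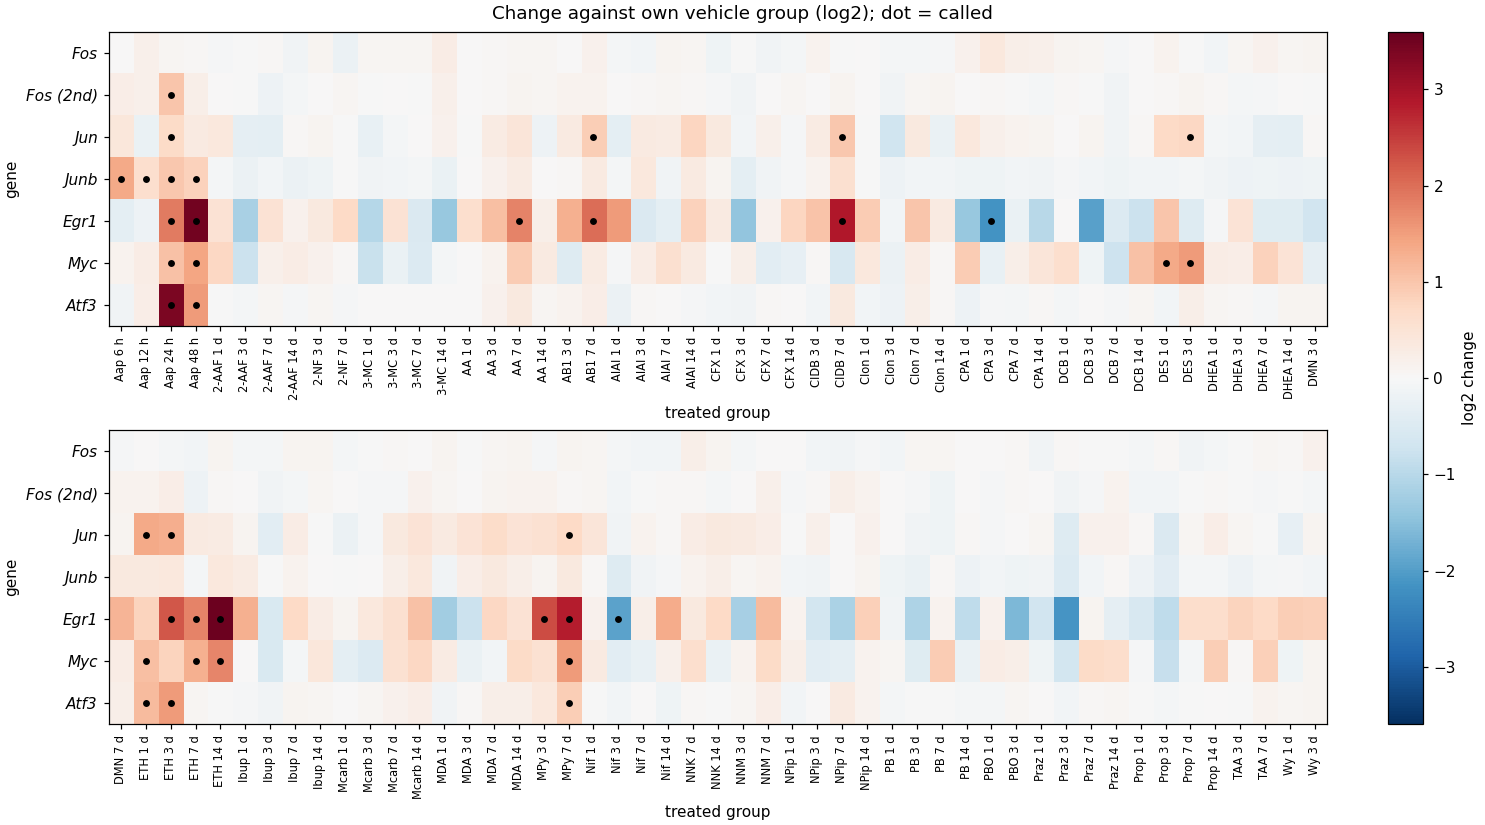
Heat map of the log2 change of each gene (rows) in each of the 98 treated groups (columns, compound and time) against its own vehicle group, red for higher and blue for lower, with a dot on each called change; "Fos (2nd)" is the second Fos probe set. Of the rows, Egr1 has dots in 12 columns, and Junb has its 4 dots in the Aap columns alone.

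Aap came first in the comparison, as the compound with the earliest hours. At 6 h, Junb was the member that rose. The Aap animals read 9.26, 9.35 and 9.02 and the saline animals 7.65, 8.08 and 7.83, so the groups lay well apart. Its change was 1.36 ± 0.18 (limma adjusted p = 2.16e-11). The remaining 5 genes were not called at 6 h, from −0.35 ± 0.63 for Egr1 to 0.40 ± 0.25 for Jun. At that hour 2.75% of the array's probe sets rose and 2.51% fell by these rules. Where an animal is left out below, the animals of its number were left out of all treated, or of all vehicle, groups in 1 fit, so the change is that of the group without it while the variance rests on fewer arrays. The third Aap animal at 6 h also carried transcripts of muscle and fat (mean over 6 markers 9.20), and without it Junb changed by 1.45.

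At 12 h, 0.800% of all probe sets rose and 1.12% fell by these rules, and Junb was again the called member, with 1 animal far above the rest. Its Aap values were 8.24, 9.41 and 8.02 against 7.97, 7.95 and 7.97 in saline, a change of 0.59 ± 0.18 (limma adjusted p = 0.0218). Without animal 2 the change was 0.16 (limma adjusted p = 0.92), and leaving out any 1 of the saline animals also ended the call. The same animal was highest in 5 of the 6 genes at this hour, with the second Fos probe set read for Fos: it stood at 10.83 in Egr1 beside 7.76 and 7.31, and at 6.18 in Atf3 beside 5.39 and 5.18.

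At 24 h, 5 of the 6 genes rose after Aap, where 6.72% of all probe sets rose and 4.08% fell by the same rules. Atf3 had the largest change of the 6: 10.01, 6.99 and 9.22 in the Aap animals against 5.26, 5.36 and 5.40 in saline, a change of 3.40 ± 0.21 (limma adjusted p = 2.28e-40). Over all arrays the mean of this Atf3 probe set lay above only 12.0% of probe sets, and from so low a saline level the size of the change is less certain than its direction. Every Aap animal lay above every saline animal, yet the 3 Aap animals themselves had an SD of 1.57, and the SE of the fit, which rests on the variance over all groups, is narrower than that. Junb also separated, with 9.39, 7.86 and 8.82 against 7.72, 7.80 and 7.64, a change of 0.97 ± 0.18 (limma adjusted p = 9.01e-07).

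In the other 3 genes called at 24 h the groups overlapped. Egr1 read 11.59, 8.79 and 10.59 after Aap and 7.10, 9.38 and 8.83 in saline, a change of 1.88 ± 0.63 (limma adjusted p = 0.0119). Jun read 10.64, 8.22 and 9.56 against 8.88, 8.47 and 9.01, a change of 0.69 ± 0.25 (limma adjusted p = 0.0249). For Myc the values were 10.05, 7.85 and 8.68 against 7.88, 7.60 and 7.89, a change of 1.07 ± 0.43 (limma adjusted p = 0.046). In each of the 3 genes, Aap animal 2 lay within or below the saline animals and animal 1 above them all. These 3 calls rest on few animals. Without Aap animal 1 the changes were 1.25 for Egr1 (limma adjusted p = 0.228), 0.11 for Jun (limma adjusted p = 0.836) and 0.47 for Myc (limma adjusted p = 0.563), and without animal 3 the calls of Jun (0.65) and Myc (1.16) were also lost. Leaving out saline animal 1 ended the call of Egr1 (1.22), saline animal 2 that of Jun (0.53), and any 1 of the 3 that of Myc.

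Fos has 2 probe sets that disagree. The brighter probe set was called in 0 of the 98 groups by limma (7 at an unadjusted p below 0.05) and changed between −0.22 and 0.38. The dimmer, called the second here, with a mean over all arrays of 4.62 that is higher than that of only 2.31% of probe sets, read 6.83, 4.58 and 5.23 at 24 h after Aap against 4.47, 4.57 and 4.58 in saline. Its change was 1.01 ± 0.11 (limma adjusted p = 1.1e-16), which was 0.37 without animal 1 and then under the 1.5-fold minimum. Aap animal 2 lay at the level of saline, and 24 h after Aap was the single group in which this probe set was called. Across the 98 changes the 2 Fos probe sets had a Pearson correlation of 0.09, whereas the 3 Jun probe sets had correlations of 0.79 to 0.92 with each other.

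In each of the 6 genes, the second Fos probe set included, Aap animal 1 was the highest of the 3 at 24 h and animal 2 the lowest. Hmox1, an oxidant-induced heme oxygenase whose change was the most like that of Junb, followed the same order with 13.20 in animal 1, 10.67 in animal 2 and 11.66 in animal 3, all above the saline values of 8.54 to 8.64. Animal 2 lay above every saline animal in Hmox1, Atf3 and, by a small margin, Junb, and above only some of them in Egr1, Myc and the second Fos probe set.

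At 48 h, 4 of the 6 genes were called higher, beside 6.01% of all probe sets called higher and 4.03% lower. Egr1 had its clearest rise here, with 10.50, 10.64 and 11.62 after Aap and 7.52, 6.88 and 7.95 in saline. The change was 3.47 ± 0.63 (limma adjusted p = 8.83e-07), and the lowest Aap animal was far above the highest saline animal. These saline animals had the lowest Egr1 mean of the 38 vehicle groups, 7.45 beside a median of 8.17. Their Junb mean was also the lowest of the 38, 7.55 beside a median of 7.73. The sizes of both changes at 48 h thus rest in part on a low saline level. Atf3 read 6.32, 7.65 and 6.41 against 5.27, 5.18 and 5.35 (1.53 ± 0.21, limma adjusted p = 4.64e-11). For Myc the values were 9.17, 9.23 and 8.30 against 7.54, 6.81 and 8.05 (1.43 ± 0.43, limma adjusted p = 0.00449), without overlap, and the call was lost without saline animal 2 (1.10, limma adjusted p = 0.0624). Junb read 8.00, 8.32 and 8.81 against 7.52, 7.44 and 7.70 (0.82 ± 0.18, limma adjusted p = 3.92e-05).

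Jun at 48 h depended on the probe set. The brightest one, used throughout, changed by 0.33 ± 0.25 and was not called, while another changed by 0.87 ± 0.31 (limma adjusted p = 0.019) and the third by 1.61 ± 0.49 (limma adjusted p = 0.00462), both without overlap between Aap and saline animals. At 24 h the other probe sets changed by 0.83, which was called, and by 1.07, which was not. Over the 98 groups the 3 Jun probe sets were called higher 7, 5 and 6 times, in 6, 4 and 5 compounds. Not every group in which the third was called is named here.

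**Figure D2:**
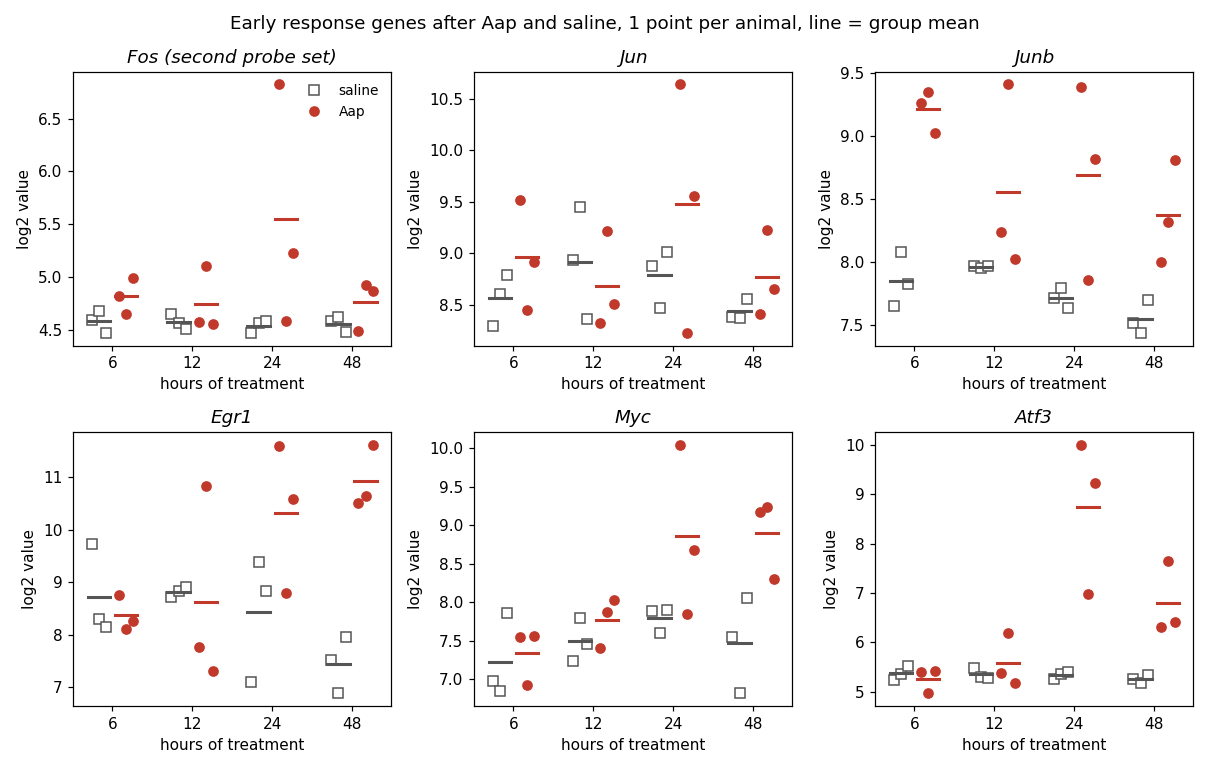
Log2 values (vertical axis) of 6 genes in each Aap animal (red circles) and saline animal (open squares) by hours of treatment (horizontal axis), with a line at each group mean of 3 animals. Junb is high in all 3 Aap animals at 6 h, and Atf3 has 1 Aap animal at 10.01 and 1 at 6.99 at 24 h.

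The change was tested between hours as a difference of differences. Among 18 such tests (6 genes, 12, 24 and 48 h each against 6 h), 3 were called higher and 1 lower, beside 5.00% and 3.84% over all probe sets. Atf3 changed by 3.51 ± 0.29 more at 24 h than at 6 h (limma adjusted p = 3.27e-24) and by 1.64 ± 0.29 more at 48 h (limma adjusted p = 1.09e-06). The difference of Egr1 was 3.81 ± 0.88 for 48 h against 6 h (limma adjusted p = 0.000267) and 2.23 ± 0.88 for 24 h against 6 h, which missed the threshold (limma adjusted p = 0.0616) but was called without Aap animal 2 (2.86) or without saline animal 2 (2.91) or 3 (2.72). Junb was the gene with a smaller change later, −0.77 ± 0.25 at 12 h against 6 h (limma adjusted p = 0.0445), a call that was lost on leaving out the Aap animals numbered 1 or 3 at both hours, or the saline animals of any 1 number. On leaving out 1 animal, Jun at 12 h against 6 h (−1.16 without Aap animal 2) and Junb at 48 h against 6 h (−0.85 without Aap animal 3) were also called. The second Fos probe set had a difference of 0.77 ± 0.15 at 24 h against 6 h (limma adjusted p = 1.79e-05), and of 0.12 without animal 1. The saline animals gave 0 called changes among 18 limma tests against 6 h (1 at an unadjusted p below 0.05), where 0.500% of all probe sets were called either way. Their largest shift was in Egr1, −1.27 ± 0.63 at 48 h (limma adjusted p = 0.745), and it enters the difference of Egr1 for 48 h against 6 h.

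Other cell types moved with the 48 h group. The mean over 9 macrophage and monocyte markers lay between 9.86 and 10.62 after Aap and between 8.96 and 9.08 in saline, with 5 markers called higher and 1 lower. The mean over 4 red cell markers lay between 8.60 and 8.85 after Aap, while no saline animal was below 10.47, and 3 were called lower. At this hour 2 of 5 neutrophil markers were called higher. Of 10 stellate cell or fibroblast markers, 3 were called higher and 1 lower. At 24 h the macrophage mean was 9.14 to 9.26 against 8.94 to 9.07, but its markers went both ways. Of the 9, 3 were called higher and 2 lower, and the median change was −0.04. The mean of 5 neutrophil markers was 6.41 to 6.70 against 6.23 to 6.33, with 1 called higher. The part of these cells in the changes of Egr1, Myc, Atf3 and Junb was not tested. The 10 hepatocyte markers had a mean between 12.57 and 13.42 on every array of the series, as the label liver says. After Aap their mean was 12.57 to 12.88 against 13.09 to 13.27 in saline at 48 h (2 of 10 called lower). At 24 h it was 12.93 to 13.05 against 13.06 to 13.18 (1 of 10 called lower). At 6 h it was higher, 13.34 to 13.42 against 13.21 to 13.26 (1 of 10 called higher). The part of hepatocytes in the changes was not tested either.

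Day 1 groups were the second set taken first. Among 126 pairs (6 genes in 21 groups), 4 were called higher and 0 lower, 3.17% of the pairs, beside 0.951% and 0.673% of all probe sets. Of the 4, 3 were in ETH and 1 in DES. Fos, Junb and Egr1 were called in 0 of their 63 limma tests at day 1, of which 5 had an unadjusted p below 0.05. Egr1 moved the most without a call, from −1.37 to 1.52, and the change of Junb was between −0.18 and 0.35, that of Fos between −0.15 and 0.17.

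ETH, the ethyl analog of methionine, gave 3 called members at day 1, where 4.57% of all probe sets were called higher. Atf3 read 5.48, 8.46 and 5.60 in the ETH animals and 5.41, 5.34, 5.36 and 5.40 in the vehicle animals, a change of 1.14 ± 0.19 (limma adjusted p = 1.59e-07). A single animal made this change, since without animal 2 it was 0.16 (limma adjusted p = 0.437). Jun read 8.89, 11.28 and 9.72 against 8.58, 8.70, 8.67 and 8.49 (1.35 ± 0.24, limma adjusted p = 3.75e-07), and 0.69 without animal 2, still called. The other 2 Jun probe sets changed by 0.28 ± 0.29 and 0.93 ± 0.46 at day 1 and were not called. For Myc the values were 7.98, 9.22 and 8.13 against 6.82, 8.01, 7.71 and 6.95 (1.07 ± 0.41, limma adjusted p = 0.0307), with overlap. Animal 2 was the highest ETH animal at day 1 in each of the 6 genes, with the second Fos probe set read for Fos. The same-numbered ETH and vehicle animals of this day deviated together over all probe sets. A fit with the replicate number as a block leaves out vehicle animal 4, which has no partner. In that fit Myc changed by 0.93 and was no longer called (limma adjusted p = 0.0615). Leaving out vehicle animal 4 with no block gave the same change of 0.93 and also ended the call (limma adjusted p = 0.0967). The call of Myc was lost as well without ETH animal 2 (0.69) or without vehicle animal 1.

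At day 3 of ETH, 3 members were called beside 7.91% of all probe sets. Egr1 read 11.33, 12.73 and 9.0 against 8.75, 8.49, 8.65 and 9.20, a change of 2.25 ± 0.59 (limma adjusted p = 0.000695) with overlap, and 12.73 was the highest Egr1 value of all treated animals of the series. Without animal 2 it was 1.39 and no longer called (limma adjusted p = 0.0852). Atf3 read 6.43, 6.03 and 8.16 against 5.29, 5.38, 5.25 and 5.50 (1.52 ± 0.19, limma adjusted p = 1.35e-12). Jun read 10.20, 10.18 and 9.30 against 8.53, 8.51, 8.28 and 9.02 (1.31 ± 0.24, limma adjusted p = 5.69e-07), both without overlap, while its other 2 probe sets changed by 0.23 ± 0.29 and 0.58 ± 0.46 and were not called. At day 7, Egr1 (1.79 ± 0.63) and Myc (1.27 ± 0.43) were called beside 2.45% of all probe sets, and each of these calls was lost without ETH animal 1 or 2 (Egr1 1.73 and 1.49, Myc 1.09 and 0.78), and also without some of the vehicle animals.

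By day 14, ETH left Egr1 and Myc called, beside 4.29% of all probe sets, and Jun (0.29 ± 0.25) and Atf3 not called. Egr1 read 10.26, 11.72 and 11.78 against 7.80, 8.00 and 7.39, a change of 3.52 ± 0.63 (limma adjusted p = 8.47e-07), which was the largest of Egr1 in the 98 groups. Myc read 8.04, 9.32 and 9.63 against 7.49, 7.67 and 6.58 (1.75 ± 0.43, limma adjusted p = 0.000647). The Atf3 animals read 5.57, 5.37 and 5.32 against 5.59, 5.28 and 5.43, a change of −0.01 ± 0.21. Set against day 1 in 1 test, the change at day 14 was higher for Egr1 by 2.71 ± 0.86 (limma adjusted p = 0.0153) and lower for Jun by −1.07 ± 0.35 (limma adjusted p = 0.0189) and for Atf3 by −1.15 ± 0.28 (limma adjusted p = 0.00105). The other 2 Jun probe sets had differences of −0.46 and −1.07 that were not called. These were the 1 higher and 2 lower calls among 126 such tests of the last day against day 1 in 21 compounds, beside 0.446% and 0.425% of all probe sets. Without the ETH animals numbered 2 on both days, the differences of Jun (−0.53) and Atf3 (−0.15) were not called, without vehicle animal 1 that of Jun (−0.79) was not, and without animal 3 (1.98) or vehicle animal 3 (2.42) that of Egr1 was not. The mean of the macrophage markers was above that of the vehicle animals on each of the 4 ETH days, from 9.31 to 9.78 against 8.69 to 8.80 at day 1, and from 9.95 to 10.12 against 8.68 to 8.93 at day 3. Of the 9 markers, 5, 6, 6 and 5 were called higher and 1 lower on the 4 days. At day 1 the endothelial mean was 8.39 to 8.60 against 7.98 to 8.22 (1 of 4 called higher), and at day 7, 3 of 4 red cell markers were called lower. At day 14 the bile duct mean was 6.96 to 7.35 against 6.60 to 6.72 (2 of 5 called higher), and the red cell mean 9.38 to 10.05 against 10.27 to 10.74 (1 of 4 called lower). The hepatocyte mean at day 3 was 12.82 to 13.05 against 13.06 to 13.18 (1 of 10 called lower). Stellate cell or fibroblast means lay above the vehicle animals at days 3 and 14, with 1 of 10 called higher on each. Neutrophil means lay above them at days 1, 7 and 14, with 1, 0 and 0 of 5 called higher. The part of all these cells in the changes under ETH was not tested.

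**Figure D3:**
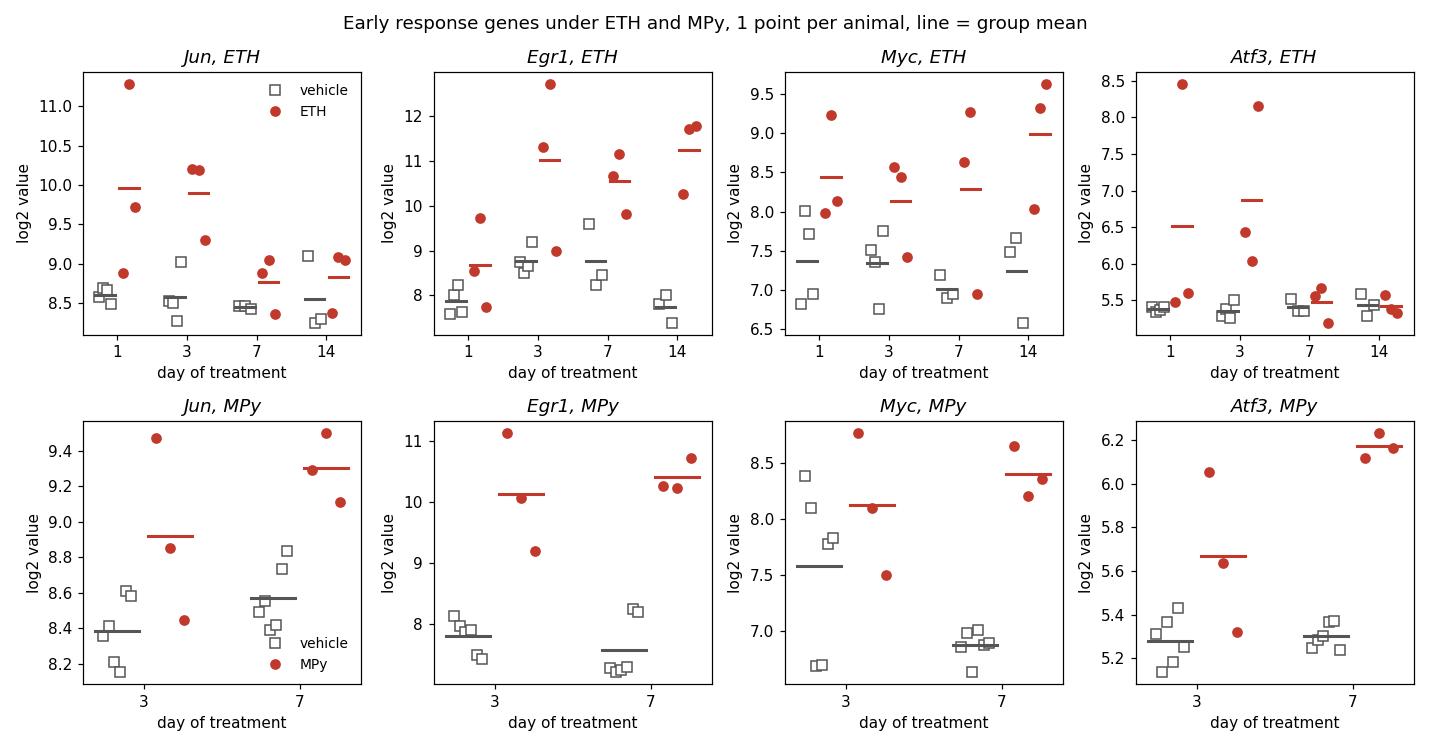
Log2 values (vertical axis) of Jun, Egr1, Myc and Atf3 in each treated animal (red circles) and vehicle animal (open squares) by day of treatment (horizontal axis), for ETH in the upper and MPy in the lower row, with a line at each group mean. Atf3 and Jun are high in 1 or more ETH animals at days 1 and 3 and lie near the vehicle animals at day 14, whereas Egr1 is high at day 14.

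MPy, an antihistamine that harms rat liver, had 4 called members at day 7, where 1.79% of all probe sets were called higher, and here the 3 animals agreed closely. Egr1 read 10.27, 10.24 and 10.72 and the 6 vehicle animals 7.26, 7.21, 7.23, 7.29, 8.25 and 8.20, a change of 2.84 ± 0.54 (limma adjusted p = 1.62e-05). Myc read 8.65, 8.20 and 8.36 against 6.85, 6.98, 6.63, 7.00, 6.87 and 6.89 (1.53 ± 0.38, limma adjusted p = 0.00133). Atf3 read 6.12, 6.23 and 6.17 against 5.25, 5.28, 5.30, 5.36, 5.37 and 5.24 (0.87 ± 0.18, limma adjusted p = 6.98e-05). In none of these 3 did a treated animal reach the vehicle range. Jun read 9.29, 9.50 and 9.11 against 8.39 to 8.83 and was called as well (0.73 ± 0.22, limma adjusted p = 0.0121), a call that was lost without animal 2 (0.63, limma adjusted p = 0.0624). The other 2 Jun probe sets were called with 1.00 and 1.46. The macrophage mean was 9.10 to 9.41 against 8.63 to 8.92, with 4 of 9 markers called higher. The red cell mean was 10.33 to 10.5 against 10.66 to 11.27 (1 of 4 called lower), and 1 of 5 bile duct markers was called higher. The part of these cells in the changes at day 7 was not tested. At day 3, beside 0.901% of all probe sets, Egr1 was the called member (2.34 ± 0.54, limma adjusted p = 0.0014), from 11.14, 10.06 and 9.20 against 8.12, 7.96, 7.86, 7.89, 7.49 and 7.42, and not without animal 1 (1.84, limma adjusted p = 0.0826).

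Egr1 was also called at day 7 in AB1, AA and CIDB, where 2.45%, 3.52% and 2.38% of all probe sets rose by the same rules. AB1 and AA share the vehicle animals of MPy. AB1 animals read 9.51, 8.74 and 10.48 (2.01 ± 0.54, limma adjusted p = 0.00302) and AA animals 8.89, 9.26 and 9.95 (1.79 ± 0.54, limma adjusted p = 0.00643), all above the 7.21 to 8.25 of the vehicle animals. Both calls were lost without animal 3 (1.554 and 1.501). CIDB animals read 10.54, 11.13 and 10.36 against 7.13, 7.25 and 8.97 in corn oil, a change of 2.89 ± 0.63 (limma adjusted p = 0.000168) without overlap. Jun rose with Egr1 in CIDB, 9.60, 9.55 and 9.82 against 8.47, 8.91 and 8.66 (0.98 ± 0.25, limma adjusted p = 0.00208), and in AB1, 9.37, 9.25 and 9.74 against 8.39 to 8.83 (0.88 ± 0.22, limma adjusted p = 0.00107, and not called without animal 3). Both other Jun probe sets were called in CIDB (1.09 and 1.57) and in AB1 (0.89 and 1.13). The macrophage mean was 9.03 to 9.17 in CIDB against 8.64 to 8.90, with 2 of 9 markers called higher and 1 lower. It was 9.04 to 9.51 in AB1 (5 higher, 1 lower) and 9.61 to 9.83 in AA (5 higher, 0 lower) against 8.63 to 8.92. In each of these groups 3 of 4 red cell markers were called lower. Bile duct markers had a mean of 6.84 to 7.71 in AB1 against 6.41 to 6.60 (3 of 5 called higher) and of 6.77 to 6.98 in CIDB against 6.41 to 6.54 (1 of 5). The mean over 10 stellate cell or fibroblast genes was 7.71 to 8.18 in AB1 (4 of 10 called higher) and 7.69 to 7.91 in AA (2 of 10) against 7.38 to 7.58. The part of these cells in the changes of Egr1 and Jun was not tested.

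Myc was called higher on both days of DES, a synthetic estrogen, beside 2.33% of all probe sets at day 1 and 1.38% at day 3. At day 3 the animals read 9.10, 8.90 and 8.62 against 7.51, 7.36, 6.75 and 7.76, a change of 1.53 ± 0.41 (limma adjusted p = 0.00362) without overlap. At day 1 only 2 animals were measured, 9.09 and 8.39 against 6.82, 8.01, 7.71 and 6.95 (1.37 ± 0.46, limma adjusted p = 0.0317). That call was lost on leaving out either of them or vehicle animal 1 or 4. Jun read 9.40, 9.40 and 9.20 at day 3 against 8.53, 8.51, 8.28 and 9.02 (0.75 ± 0.24, limma adjusted p = 0.0209), and this call was lost without vehicle animal 1, 2 or 3 (0.73, 0.73 and 0.65). Its other 2 probe sets, with 0.51 and 0.86, were not called. Egr1, Junb, Atf3 and Fos were not called under DES. At day 3 the hepatocyte mean was 12.89 to 12.96 against 13.06 to 13.18 (1 of 10 called lower). The stellate cell mean was 7.521 to 7.543 against 7.571 to 7.638 at day 3, but 7.706 to 7.761 against 7.425 to 7.702 at day 1 (0 of 10 called on either day). Of the macrophage markers, 0 of 9 were called on either day. The part of these cells in the changes of Myc and Jun was not tested.

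The 2 called falls were both of Egr1 at day 3, in CPA and Nif, where 1.71% and 1.20% of all probe sets were called lower. The means of their vehicle groups, 9.13 and 9.57, lay above the median of 8.17 over the 38 vehicle groups. CPA animals read 6.99, 7.01 and 6.93 and their corn oil animals 8.53, 9.08 and 9.79, a change of −2.15 ± 0.63 (limma adjusted p = 0.0112). Nif animals read 7.34, 7.91 and 7.68 against 9.26, 11.03 and 8.43 (−1.93 ± 0.63, limma adjusted p = 0.0319), and 11.03 was the highest Egr1 value among all 128 vehicle animals. Without that animal the Nif change was −1.20 and not called (limma adjusted p = 0.31). Leaving out vehicle animal 1 or treated animal 1 also ended it, and the CPA call was lost without vehicle animal 3 (−1.83, limma adjusted p = 0.106). The same 2 vehicle groups gave −1.96 (limma adjusted p = 0.272) for 1,4-Dichlorobenzene (300 mg/kg) and −2.14 (limma adjusted p = 0.431) for Prazosin (1 mg/kg) at day 3, with no call. In CPA the macrophage mean was 8.56 to 8.77 against 8.97 to 9.19, with 3 of 9 markers called lower. The hepatocyte mean was lower in both compounds, 12.86 to 12.97 against 13.17 to 13.32 in CPA (1 of 10 called lower) and 12.88 to 12.98 against 13.17 to 13.22 in Nif (2 of 10). The stellate cell mean was 7.09 to 7.39 against 7.40 to 7.65 in CPA (2 of 10 called lower) and 7.25 to 7.47 against 7.55 to 7.81 in Nif (0 of 10). In CPA the endothelial mean was also lower, 7.96 to 8.11 against 8.23 to 8.32, and the bile duct mean higher, 6.62 to 6.73 against 6.42 to 6.55. The part of these markers in the falls of Egr1 was not tested.

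The spread differed between the genes. Over the 38 vehicle groups the mean of Egr1 lay between 7.45 and 9.58, with an SD within groups of 0.77 that was above 99.8% of all probe sets. The means of Myc lay between 6.77 and 8.46 (SD within groups 0.54) and those of Jun between 8.23 and 8.92 (0.31). Junb (7.55 to 8.04, SD 0.22), Atf3 (5.25 to 5.50, SD 0.25) and both Fos probe sets (6.75 to 7.00, SD 0.11, and 4.52 to 4.79, SD 0.13) varied less between vehicle groups. These SDs cover treated groups as well. Of the 293 treated animals, 17 lay above every vehicle animal of the series in Atf3, 16 in Jun, 12 in Junb, 10 in Egr1, 9 in Myc, 7 in Fos and 3 in the second Fos probe set.

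The genes around the members were read from lists of pathway genes. Of 16 measured genes that are known as MYC targets in ribosome and polyamine production, 16 were called higher at 24 h after Aap, 13 at 48 h, 2 at 6 h and 0 at 12 h, with 1 lower at 12 h. Their median change at 24 h was 1.48, beside −0.04 over all probe sets. The largest changes at 24 h were in Ddx21 (2.03 ± 0.21) and Nop58 (1.88 ± 0.20), nucleolar proteins of ribosome assembly, and at 6 h Odc1, the first enzyme of polyamine synthesis, changed by 1.87 ± 0.17. Myc itself was not called at 6 h (0.12 ± 0.43). Under ETH the same list had 8, 11, 7 and 13 of 16 genes called higher at days 1, 3, 7 and 14, and under MPy at day 7 it had 3. Under DES at day 3, where Myc was called as well, it had 2, with a median of 0.30. Of 8 measured genes of the MYC network, which holds relatives of MYC and its partners and rivals in dimer formation, 0 of 32 limma tests over the 4 Aap hours were called, and 14 had an unadjusted p below 0.05.

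Of 14 measured genes of the ATF4 and CHOP stress arm, 11 were called higher and 1 lower at 24 h after Aap. At 6 h the counts were 4 and 2, at 12 h 5 and 2, and at 48 h 7 and 1. Asns, the asparagine synthetase, changed by 2.31 ± 0.20 at 24 h, Nupr1 by 2.11 ± 0.36, and Trib3, a pseudokinase, by 2.04 ± 0.23. The 1 lower gene was Cth, a cystathionine lyase (−1.96 ± 0.16). Under MPy at day 7, 6 of the 14 were called higher and 0 lower. Under ETH, where Atf3 was called at days 1 and 3, the counts were 2 higher and 2 lower at day 1 (median −0.03) and 4 and 1 at day 3 (median 0.17). The lists were chosen with earlier results of these data known, so their counts are a description.

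Partners of AP-1 moved little. Of 9 measured, 2 were called higher at 24 h after Aap, Mafk (0.83 ± 0.10) and Fosl1 (0.68 ± 0.10), and 0 at the other hours. Of 9 measured EGR and NR4A factors, 1 was called over the 4 hours, Nab2, a repressor that binds EGR proteins, with 1.07 ± 0.12 at 48 h, the hour of the largest Egr1 change after Aap. Other early factors were called higher in 4, 2, 5 and 3 of 14 at 6, 12, 24 and 48 h, and lower in 1, 0, 0 and 1. Klf6, a zinc finger factor, changed by 2.34 ± 0.25 at 24 h, and Cebpb, a factor of the acute phase response, by 1.57 ± 0.25 at 6 h and 1.16 ± 0.25 at 24 h. The secreted and matrix early genes had 5, 2, 7 and 2 of 17 called higher, with Cxcl1, a neutrophil chemokine, at 2.41 ± 0.36 at 6 h and Hmox1 at 3.27 ± 0.24 at 24 h.

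Feedback genes split at 6 h, with 3 of 14 called higher and 3 lower. Zfp36, an RNA decay factor, changed by 1.52 ± 0.19 and the phosphatase gene Dusp1 by 1.17 ± 0.41, while Dusp6, another phosphatase gene, changed by −2.41 ± 0.40. At 24 h the counts were 4 and 1, with Dusp5 at 1.73 ± 0.17, and at 48 h 2 and 0. Among the BTG family and growth arrest genes, which stand nearest to the unmeasured Btg2, 4, 0, 3 and 2 of 10 were called higher at the 4 hours. Gadd45b, a stress sensor, changed by 2.28 ± 0.16 at 6 h, Cdkn1a, a cell cycle inhibitor, by 2.01 ± 0.31 and Btg1 by 0.86 ± 0.16. Of 12 measured p53 targets, of which Cdkn1a is also 1, 2, 0, 3 and 3 were called higher and 1, 0, 2 and 2 lower. In the 5 groups with both Egr1 and Jun called, the counts of these 12 called higher were 8 in CIDB, 7 in AB1 and 2 in MPy at day 7, 6 in ETH at day 3 and 3 in Aap at 24 h, where 2.38%, 2.45%, 1.79%, 7.91% and 6.72% of all probe sets were higher.

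**Figure D4:**
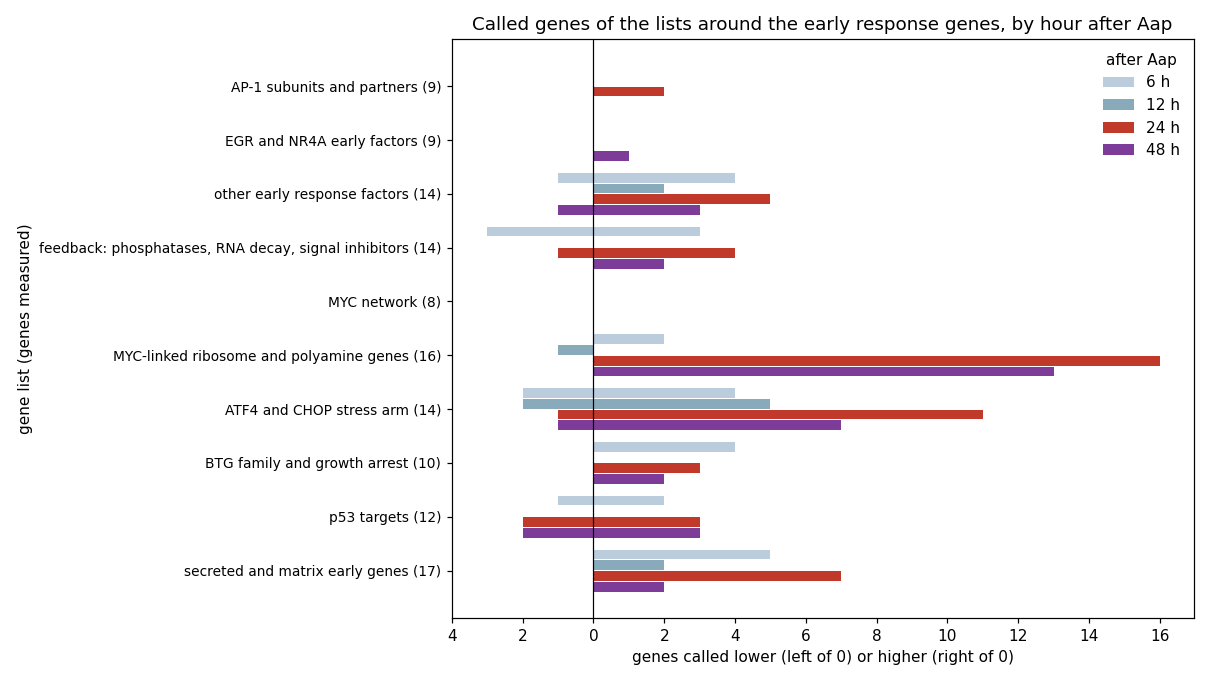
Number of genes called higher (bars to the right of 0) and lower (to the left) after Aap at each hour (colours), for 10 lists of pathway genes with the number of genes measured in brackets. The list of MYC-linked ribosome and polyamine genes has 16 of 16 genes higher at 24 h and 13 at 48 h, and the MYC network list has 0 at every hour.

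Likeness was read as the Pearson correlation of the change over the 98 groups, which share vehicle animals within blocks, so it is a description over all named genes. For Atf3 the 5 most alike were Slc6a9 (0.84), a glycine transporter, Prmt3 (0.81), Pvr (0.81), Nop56 (0.80) and Hspa1a (0.78), a heat shock protein. For Junb they were Hmox1 (0.76), Stat3 (0.71), Klf6 (0.70), Spsb1 (0.68) and Mafk (0.67). For Egr1 they were Pkp2 (0.69), Stk10 (0.65), Lgmn (0.65), Nab2 (0.65) and Tgfb1 (0.65). Jun was most like Snx18 (0.61), Ywhah (0.61), Ezr (0.60), F2r (0.59) and Ier2 (0.59), and Myc most like Tent4a (0.62), Prep (0.55), Pkp2 (0.54), Nop16 (0.54) and Ppp2r1b (0.54). The main Fos probe set reached at most 0.59 (Tnfrsf4, then Prcd 0.56, Mfsd11 0.55, Pcsk4 0.55 and Acr 0.55), in genes that were called in 0 groups.

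Among the members themselves, Jun and Junb (0.55), Junb and Egr1 (0.56), Junb and Atf3 (0.55) and Jun and Atf3 (0.47) were the main probe set pairs with the highest correlations of the change, and Junb and Myc (0.34) the pair with the lowest among the 5 genes without Fos. The second Fos probe set had 0.78 with Atf3 and 0.62 with Junb, while the main Fos probe set had between −0.12 and 0.18 with the other 5. The second Fos probe set was called only in Aap at 24 h, the group where Atf3 had its largest change (3.40). How far the correlations of this dim probe set rest on that group was not tested. Within groups, over the deviations of all 421 animals from their group means, Jun and Junb had a correlation of 0.58, Junb and Egr1 0.56 and Egr1 and Atf3 0.17.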

How the data were processed

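Whole liver RNA of 421 rats was hybridised to Affymetrix RAE230A arrays, 1 array per animal. The authors deposited 1 table of log2 values for 15866 probe sets, made with RMA (background correction, quantile normalization and summary over probes), as the submitters' processing notes and the study's methods name it, without a version. RMA sets the distribution of probe intensities equal between arrays before the summary, so every change is relative to the other probe sets of an array. The summarised values are close to equal in distribution but not fully so, with array medians from 7.38 to 7.49. The arrays have no read depth, and the number of arrays, 2 or 3 treated against 3 to 6 vehicle, limits the precision. Groups, doses, times and the matching vehicle group came from the labels.

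From these log2 values limma 3.58.1 (R 4.3.3) fitted 1 mean per group over all arrays, with 285 residual degrees of freedom and 4.67 prior degrees of freedom, and tested each treated group minus its vehicle group, the difference of that change between Aap hours and between the last day and day 1, and saline hours against each other. The p-values were adjusted per contrast by Benjamini-Hochberg over all probe sets. A call needed an adjusted p below 0.05 and at least 1.5-fold. The p-values rest on the spread between animals within groups, pooled over all groups of the series, and not on that of the compared animals alone. Gene names came from the platform annotation updated by gene identifier, with 12783 probe sets of 1 gene, 312 of several and 2771 not listed. No pair of arrays held identical values (0 found).

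The genes and all gene lists were chosen with earlier results of these data known, and the pathway and marker lists are of textbook genes. The text names all the members, at most the 8 largest rises and 5 largest falls of each, at most the 4 called genes of a list with the largest change per comparison, and the 5 genes most alike to each member. The fit was tested on simulated data with known changes. The alternatives were a model of only the 2 groups compared (4 for a difference of changes), quantile normalization, median centring, a filter on the mean (at least 6), a trended and robust variance, the replicate number as a block, each replicate number left out in turn (from all treated or all vehicle groups at once), no fold minimum and 2-fold. Arrays with transcripts of other tissues (7, with a muscle and fat or a pancreas marker mean more than 2 above the group median) were left out in an alternative chosen after seeing the data, as was the second Fos probe set. Upstream stretches came from a RefSeq table (GRCr8), which held Egr1, Junb and Btg2. For the pairing check, deviations of same-numbered treated and vehicle animals were correlated over all probe sets: the mean over 293 pairs was 0.0131, and every pair of a group lay above 0.1 in 4 of 98 groups, of which ETH at day 1 is the one with called members. Figures were drawn with matplotlib 3.10.9 (Python 3.11.15).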

Additional observations from a re-analysis of the deposited data

Results flagged for a closer look

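The change of Atf3 after Aap differed between hours by a test of the difference, 3.51 for 24 h and 1.64 for 48 h against 6 h on the log2 scale. Egr1 differed by 3.81 between 48 h and 6 h. Junb differed by −0.77 between 12 h and 6 h, and the second Fos probe set by 0.77 between 24 h and 6 h, a difference of 0.12 without Aap animal 1. Under ETH the change at day 14 differed from that at day 1 by 2.71 for Egr1, by −1.07 for Jun and by −1.15 for Atf3, where the last was −0.15 without ETH animal 2.

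In Junb, 1 of the 6 CMC animals of block 1F at day 14 stood apart, with 7.84 beside 7.46, 7.52, 7.49, 7.48 and 7.57. Its gap to the nearest animal was 0.728 of the group's range. Of 54 combinations of a group and a probe set tested in this way, 1 was found, where chance gives about 1 in 20.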

How the results depend on the processing

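All values are log2 changes or numbers of called groups. No result changed direction among the calls in any alternative. In a fit of the compared groups only, which has few degrees of freedom, the changes stayed as they were but these were no longer called: the second Fos probe set at 24 h of Aap (1.01) and at 24 h against 6 h (0.77), Jun at 24 h of Aap (0.69), at day 1 of ETH (1.35) and between the last day and day 1 of ETH (−1.07), Junb at 12 h (0.59), at 24 h (0.97) and at 12 h against 6 h (−0.77), Egr1 at 24 h (1.88), at day 7 of ETH (1.79) and at day 3 of Nif (−1.93), Myc at 24 h (1.07), at day 1 of DES (1.37) and ETH (1.07) and at day 7 of ETH (1.27), and Atf3 at day 1 of ETH (1.14) and between its last day and day 1 (−1.15). In that fit Junb was called higher in 2 groups, the second Fos probe set in 0, and Myc lower in 1. Quantile normalization ended the calls at 24 h of Aap of Jun (0.61) and Myc (0.99). With no fold minimum Fos was called higher in 1 group and its second probe set in 2, and read from the second probe set Fos was called in 1. At 2-fold Jun was called higher in 2 groups and Junb in 1. With the replicate number as a block, Myc was no longer called at day 1 of DES (1.19) and of ETH (0.93), and it changed no other call of a result listed here; as vehicle animal 4 has no partner, the block leaves it out.

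With 1 animal left out, the number of groups called higher was 0 to 1 for the second Fos probe set, 5 to 8 for Jun, 3 to 5 for Junb, 7 to 10 for Egr1, 4 to 8 for Myc and 4 to 5 for Atf3, and the number called lower 1 to 3 for Egr1 and 0 to 1 for Junb. At 24 h of Aap the change ranged from 0.37 to 1.49 for the second Fos probe set, 0.11 to 1.32 for Jun, 1.22 to 2.65 for Egr1 and 0.47 to 1.57 for Myc. It ranged from 0.16 to 0.86 for Junb at 12 h and from 1.10 to 1.74 for Myc at 48 h. Between 24 h and 6 h it ranged from 0.12 to 1.16 for the second Fos probe set, and between 12 h and 6 h from −1.12 to −0.58 for Junb. At day 1, Myc ranged from 1.02 to 1.72 in DES and from 0.69 to 1.31 in ETH, and Atf3 from 0.16 to 1.65 in ETH. Between the last day and day 1 of ETH the ranges were −1.37 to −0.53 for Jun, 1.98 to 3.14 for Egr1 and −1.74 to −0.15 for Atf3. Of the 36 calls against vehicle, 17 held with every animal left out in turn. In Aap these were Junb at 6 h (1.26 to 1.47), 24 h (0.62 to 1.39) and 48 h (0.61 to 1.01), Egr1 at 48 h (3.12 to 3.72), and Atf3 at 24 h (2.77 to 4.28) and 48 h (1.10 to 1.76). In ETH they were Jun at day 1 (0.69 to 1.89) and day 3 (1.16 to 1.61), Atf3 at day 3 (0.88 to 1.94), and Egr1 (3.26 to 4.02) and Myc (1.42 to 2.23) at day 14. The others were Egr1, Myc and Atf3 in MPy at day 7, Egr1 and Jun in CIDB at day 7, and Myc in DES at day 3. Among the differences between times, those of Egr1 at 48 h (3.35 to 4.35) and Atf3 at 24 h (2.95 to 4.24) and 48 h (1.07 to 1.95) against 6 h of Aap held. Median centring, the trended and robust variance, and leaving out the arrays with other tissues kept every call listed in this section, as far as the probe set was still tested. The filter at a mean of 6 removed Atf3 and the second Fos probe set, which then have no value. The cause of these losses was not tested beyond the animals and degrees of freedom named.

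The dim second Fos probe set and Atf3 lay close to the lower end of the array's signals in vehicle animals, which limits how low a level can be read there. With 3 chosen animals per group a single animal can decide a change, and a missed call does not show that values did not differ.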
